A study of Mus musculus with 12 samples.

Results

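The Toll-like receptors (TLRs) of a mouse macrophage line were followed through deletion of Acat1 and stimulation with lipopolysaccharide (LPS). The members were taken by gene symbol from the deposited count tables, and all 10 (Tlr1, Tlr2, Tlr3, Tlr4, Tlr5, Tlr6, Tlr7, Tlr8, Tlr9 and Tlr13) were listed in both tables and passed the filter on low counts, out of 18719 genes listed in either. J774A.1 is a transformed mouse macrophage line, in which the study asked how loss of ACAT1, a mitochondrial enzyme of distal fatty acid oxidation, changes immune gene expression. RNA was sequenced from 3 WT and 3 ACAT1 KO lines. The 4 groups of 3 libraries were WT unstimulated, ACAT1 KO unstimulated, WT LPS and ACAT1 KO LPS, and stimulation was with 100 ng/ml LPS for 2 hours. All lines had been transfected with a Cas9 and GFP plasmid, with a guide to Acat1 for the ACAT1 KO lines and with no guide for the WT lines, then sorted on GFP and grown as clonal populations, so a difference between genotypes is a difference between few clones. Replicates are different lines, and p-values measure the spread between their libraries. Without stimulation that spread also holds the 3 libraries that stood apart, as described below.

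TLRs are membrane receptors that recognize microbial molecules and signal through TIR-domain adaptors to NF-kB and the interferon regulatory factors. TLR1, TLR2, TLR4, TLR5 and TLR6 sit at the cell surface, where TLR2 pairs with TLR1 or TLR6 to bind bacterial lipoproteins, TLR4 binds LPS with MD-2 and TLR5 binds flagellin. TLR3 (double-stranded RNA), TLR7 and TLR8 (single-stranded RNA), TLR9 (unmethylated CpG DNA) and TLR13 (bacterial ribosomal RNA) act in endosomes. LPS is therefore a direct ligand of the product of Tlr4 alone among these genes. In GRCm38, Tlr2 spans chr3:83836272-83841767 on the minus strand, Tlr4 chr4:66827584-66930284 and Tlr5 chr1:182954788-182976044 on the plus strand. Tlr1 and Tlr6 are neighbours on chromosome 5 and Tlr7 and Tlr8 on chromosome X, where Tlr13 also lies, and Tlr3 and Tlr9 are on chromosomes 8 and 9.

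Sequence upstream of the start site is shown for the members with the largest responses to LPS in WT cells among those with an entry in RefSeq (assembly GRCm38.p6), together with Tlr6. Entries matched 8 of the 10 members, all but Tlr4 and Tlr7. In the 250 bases before each RefSeq start site, 6 motifs were searched on both strands. These were the NF-kB binding motif (kB), the interferon-stimulated response element (ISRE), the core of the PU.1 motif (GAGGAA), the AP-1 motif (TGANTCA), the cyclic AMP response element (TGACGTCA) and the TATA box (TATAAA). Capitals mark the bases of any match. Stretches inside exons of the GENCODE annotation were left out. For Tlr3 only 30 bases around its match, inside such an exon, are shown, and 72 bases of its window outside exons are not.
Tlr2, chr3:83841768-83841858, minus strand: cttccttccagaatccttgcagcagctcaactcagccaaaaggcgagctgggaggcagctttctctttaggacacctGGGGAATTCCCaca
Tlr3, chr8:45410572-45410601, minus strand: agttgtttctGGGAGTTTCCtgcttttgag
Tlr9, chr9:106222348-106222597, plus strand: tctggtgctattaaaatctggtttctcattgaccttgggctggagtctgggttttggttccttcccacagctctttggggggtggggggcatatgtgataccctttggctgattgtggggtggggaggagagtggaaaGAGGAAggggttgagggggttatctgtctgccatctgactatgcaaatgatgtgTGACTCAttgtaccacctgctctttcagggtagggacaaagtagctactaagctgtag
Tlr6, chr5:64959167-64959416, minus strand: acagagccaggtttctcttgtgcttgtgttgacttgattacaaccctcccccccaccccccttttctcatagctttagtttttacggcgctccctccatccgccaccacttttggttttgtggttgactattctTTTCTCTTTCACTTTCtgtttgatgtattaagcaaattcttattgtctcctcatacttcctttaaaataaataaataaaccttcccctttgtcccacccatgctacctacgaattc
Tlr5, chr1:182954538-182954787, plus strand: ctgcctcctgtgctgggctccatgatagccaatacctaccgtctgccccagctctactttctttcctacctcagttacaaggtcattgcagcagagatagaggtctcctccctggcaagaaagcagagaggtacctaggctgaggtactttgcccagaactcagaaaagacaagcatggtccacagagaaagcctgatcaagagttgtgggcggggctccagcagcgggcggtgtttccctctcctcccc
Tlr8, chrX:167264330-167264579, minus strand: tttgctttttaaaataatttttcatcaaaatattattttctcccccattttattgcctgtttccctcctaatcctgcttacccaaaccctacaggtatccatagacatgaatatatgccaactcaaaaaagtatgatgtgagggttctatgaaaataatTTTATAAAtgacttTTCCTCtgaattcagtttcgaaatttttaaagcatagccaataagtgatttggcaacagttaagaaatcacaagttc

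A kB match, held by 3.90% of 32851 promoter windows, was found for Tlr2 and Tlr3 and for none of the other 6 members searched. The Tlr2 window held 2 overlapping matches, beginning 173 and 172 bases upstream of the RefSeq start site. The Tlr3 match began 211 bases upstream, within an exon of the GENCODE annotation. Tlr9 held an AP-1 match (6.75% of windows) 58 bases upstream and a PU.1 core (23.3% of windows) 112 bases upstream. A window of Tlr6 held 2 overlapping ISRE matches (2.98% of windows), 116 and 110 bases upstream on the opposite strand, and its other window held 3 TATA boxes. A PU.1 core was also found for Tlr1 and Tlr13. The Tlr8 window held a PU.1 core and 2 overlapping TATA boxes on opposite strands (12.4% of windows). No motif searched was found in the Tlr5 window, and the cyclic AMP response element (1.55% of windows) was found in no member. A match is a description of these letters and was not tested as a binding site.

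Levels are given as CPM, counts scaled by TMM to 1000000 per library. Libraries held 56948593 to 167280149 counts. As a check of the labels, unstimulated WT cells held 109.5 ± 17.1 CPM of Acat1 (SD, n = 3) against 30.0 ± 1.89 in unstimulated ACAT1 KO cells, and after LPS the levels were 73.0 ± 13.6 against 17.3 ± 0.641 CPM. All 8 macrophage markers were listed in every group, with a summed level of 6964 to 11695 CPM per library, while all 4 T and NK cell markers were in neither table. The summed level of the 5 dendritic cell markers was at most 5.97 CPM and that of the 5 neutrophil and mast cell markers at most 5.73 CPM. Epithelial and stromal markers summed to at most 0.798 CPM. Cd79a, a B cell gene, rose after LPS in both genotypes but reached at most 0.836 CPM. WT unstimulated replicates 1 and 2 and ACAT1 KO unstimulated replicate 2 stood apart, with 0.0450% to 0.0685% of counts in noncoding genes opposite other genes, against at most 0.0158% in the other 9, and results that moved without them are given below. WT unstimulated replicate 1 also held 9.32% of its counts in mitochondrial genes, against at most 4.04% elsewhere. In bulk RNA, fewer cells of a type and less RNA per cell cannot be told apart.

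Per kilobase of exon, Tlr2, Tlr7 and Tlr13 were the most abundant TLR transcripts in unstimulated WT cells. Levels between genes were compared as RPKM, that is CPM per kilobase of merged exon. Tlr2 stood at 94.9 ± 3.70 RPKM (SD, n = 3), which was 36.2% ± 1.64 of the summed TLR level. Tlr7 followed at 65.7 ± 7.35, Tlr13 at 46.6 ± 6.54, Tlr8 at 24.9 ± 3.11 and Tlr4 at 11.7 ± 0.982 RPKM. Each of these 5 lay above the next in all libraries. Tlr1 at 5.00 ± 0.395, Tlr3 at 4.75 ± 0.256 and Tlr9 at 4.55 ± 0.499 RPKM overlapped as neighbours. Tlr5 at 2.38 ± 0.172 and Tlr6 at 2.00 ± 0.150 RPKM were the lowest and did not overlap. Tlr4, which encodes the LPS receptor, thus made up 4.46% ± 0.229 of the summed level.

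The order in unstimulated ACAT1 KO cells again began with Tlr2, at 89.1 ± 20.1 RPKM. Tlr13 at 52.8 ± 9.30 and Tlr7 at 49.9 ± 3.15 RPKM came next and overlapped, where in WT cells Tlr7 lay above Tlr13 in every library. Tlr8 stood at 18.9 ± 1.91 and Tlr4 at 11.4 ± 0.628 RPKM. The lowest were Tlr6 at 1.85 ± 0.175 and Tlr5 at 1.76 ± 0.231 RPKM, whose libraries overlapped.

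After LPS, Tlr2 alone made up 85.7% ± 2.28 of the summed TLR level in WT and 85.3% ± 1.61 in ACAT1 KO cells. The sum over the 10 members went from 262.4 ± 20.6 to 1339 ± 77.6 RPKM in WT cells, a ratio of 5.10, and from 239.2 ± 24.2 to 1354 ± 45.8 RPKM in ACAT1 KO cells, a ratio of 5.66. Without Tlr2 the sum went from 167.5 ± 17.1 to 190.4 ± 20.5 RPKM in WT cells, a ratio of 1.14, and the libraries of the 2 states overlapped. In ACAT1 KO cells it went from 150.1 ± 12.6 to 199.2 ± 19.8 RPKM, a ratio of 1.33, with no overlap. Tlr3 and Tlr9 stood behind Tlr2, Tlr7 and Tlr13 after LPS in both genotypes, at 29.8 ± 6.27 and 26.8 ± 1.43 RPKM in WT and at 28.1 ± 3.47 and 24.9 ± 3.04 RPKM in ACAT1 KO cells. Tlr4 stood at 4.68 ± 0.264 and 3.85 ± 0.233 RPKM, and Tlr5 was lowest in both, at 0.541 ± 0.0756 and 0.277 ± 0.0478 RPKM. With the length of the longest transcript in place of merged exons, 8, 6, 8 and 10 of the 10 members kept their place in the order in WT unstimulated, ACAT1 KO unstimulated, WT LPS and ACAT1 KO LPS cells.

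**Figure D1:**
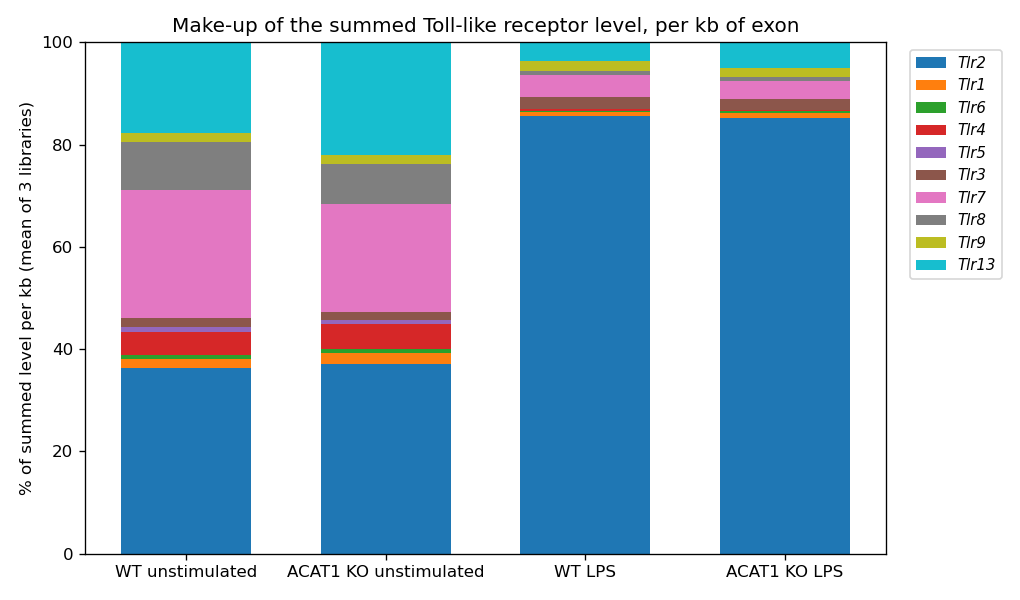
Stacked bars give each TLR's share (%) of the summed level per kilobase of exon, as the mean of 3 libraries in each of the 4 groups. Tlr2 takes 36.2% and 37.0% of the sum in unstimulated WT and ACAT1 KO cells and 85.7% and 85.3% after LPS.

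LPS changed 8 of the 10 TLR transcripts in WT cells, where 57.4% of all 16535 genes tested passed the same test. Tlr1, Tlr2, Tlr3, Tlr6 and Tlr9 rose (29.3% of genes rose), and Tlr4, Tlr5 and Tlr8 fell (28.0% of genes fell). The groups did not overlap for any of these 8, as for 31.4% of genes higher and 29.6% lower. The median log2 fold change of the members was 0.45, against -0.02 for all genes tested. The question was how 2 hours of LPS changes the transcripts of these receptors, whose protein was not measured here. Fold changes below come from edgeR's quasi-likelihood test over all genes, with standard error (SE) and Benjamini-Hochberg adjusted p. For the responses this test did not pair the unstimulated and LPS libraries of a line, except where the line is named as a block.

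Tlr2, the common subunit of the lipoprotein receptors, showed the largest response. It stood at 296.9, 286.0 and 274.7 CPM in WT unstimulated replicates 1, 2 and 3, and at 3801, 3289 and 3291 CPM in the same replicates after LPS. The libraries of the 2 states lay far apart, with no overlap. The log2 fold change was 3.60 (SE 0.14, adjusted p = 2.33e-09), or 12.1-fold, and 0.865% of genes rose at least as far. In ACAT1 KO cells Tlr2 went from 336.4, 219.6 and 249.7 CPM to 3660, 3363 and 3418 CPM. The log2 fold change there was 3.70 (SE 0.14, adjusted p = 1.58e-09).

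Its partners rose less. Tlr1 went from 15.8, 16.1 and 18.2 CPM to 22.9, 33.8 and 37.6 CPM in WT cells, a log2 fold change of 0.91 (SE 0.14, adjusted p = 1.83e-04). The ACAT1 KO lines went from 18.2, 19.0 and 17.3 CPM to 43.8, 48.5 and 44.3 CPM, a log2 fold change of 1.32 (SE 0.15, adjusted p = 7.70e-06). The 2 states did not overlap in either genotype, and WT LPS replicate 1 was the lowest library after LPS. Tlr6, which lies beside Tlr1 on chromosome 5, went from 7.68, 6.82 and 7.87 CPM to 10.8, 15.4 and 13.8 CPM in WT cells, a log2 fold change of 0.84 (SE 0.13, adjusted p = 1.13e-04). Tlr6 in ACAT1 KO cells went from 7.42, 6.17 and 7.11 CPM to 14.4, 13.5 and 13.9 CPM, a log2 fold change of 1.01 (SE 0.13, adjusted p = 2.13e-05). Transcripts of Tlr1 and Tlr6 shared 259 stretches of 100 bases, 7.89% of those of Tlr1 and 7.09% of those of Tlr6, so reads there may have been counted for either gene.

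Of the endosomal receptors, Tlr3 and Tlr9 rose. Tlr3 went from 23.4, 24.7 and 26.1 CPM to 117.9, 168.5 and 178.9 CPM in WT cells, a log2 fold change of 2.65 (SE 0.15, adjusted p = 3.15e-08). Without ACAT1 it went from 21.3, 21.1 and 18.4 CPM to 142.5, 166.3 and 130.8 CPM, a log2 fold change of 2.85 (SE 0.15, adjusted p = 1.50e-08). The lowest library after LPS, WT replicate 1, still lay above all unstimulated libraries. The noncoding gene Gm45542 covers 381 exon bases of Tlr3 on the other strand, was not listed in the unstimulated table, and reached at most 0.105 CPM after LPS. Tlr9 went from 17.3, 16.3 and 13.9 CPM to 90.8, 90.0 and 99.1 CPM in WT cells, a log2 fold change of 2.56 (SE 0.11, adjusted p = 5.17e-09). The ACAT1 KO lines went from 12.9, 15.8 and 14.3 CPM to 77.6, 98.3 and 84.4 CPM, a log2 fold change of 2.60 (SE 0.11, adjusted p = 3.71e-09). The libraries after LPS were all higher, with no overlap between states.

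Tlr4, the receptor of the stimulus, fell. It stood at 65.3, 70.3 and 59.4 CPM in unstimulated WT cells and at 24.8, 25.6 and 27.6 CPM after LPS, the log2 fold change being -1.32 (SE 0.08, adjusted p = 4.59e-08), or 2.50-fold lower. Without ACAT1 it went from 60.5, 67.3 and 62.5 CPM to 20.1, 22.7 and 21.3 CPM, a log2 fold change of -1.57 (SE 0.08, adjusted p = 1.03e-08). All 6 libraries after LPS lay below all 6 unstimulated libraries.

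Tlr5, the flagellin receptor, fell furthest. It went from 11.7, 11.99 and 10.4 CPM to 2.69, 2.19 and 2.90 CPM in WT cells, a log2 fold change of -2.13 (SE 0.16, adjusted p = 2.99e-07). The ACAT1 KO lines went from 7.17, 9.18 and 8.96 CPM to 1.07, 1.51 and 1.40 CPM, a log2 fold change of -2.66 (SE 0.16, adjusted p = 5.28e-08). These low levels still rested on 92 to 438 counts per library after LPS. Tlr8 went from 95.9, 95.5 and 76.4 CPM to 30.9, 37.9 and 37.6 CPM in WT cells, a log2 fold change of -1.33 (SE 0.13, adjusted p = 3.74e-06). Without ACAT1 it went from 62.0, 75.3 and 65.6 CPM to 33.6, 36.7 and 27.0 CPM, a log2 fold change of -1.06 (SE 0.13, adjusted p = 2.24e-05). States did not overlap for either gene in either genotype.

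Tlr7 and Tlr13, the most abundant endosomal receptors before stimulation, did not pass the test in either genotype, with values near the threshold for Tlr7 in WT and Tlr13 in ACAT1 KO cells. Tlr7, the X-linked neighbour of Tlr8, stood at 297.2, 270.4 and 237.3 CPM without stimulation and at 226.7, 236.9 and 236.9 CPM after LPS in WT cells, a log2 fold change of -0.20 (SE 0.08, adjusted p = 0.0531). The WT states did not overlap. Of 10 other settings 5 called this fall, among them DESeq2 (adjusted p = 0.0234) and the line as a block (adjusted p = 0.0420). Without the 3 libraries that stood apart its log2 fold change was -0.05. That value rests on replicate 3 as the only unstimulated WT library. In ACAT1 KO cells Tlr7 stood at 200.2, 218.1 and 193.1 CPM and then at 190.9, 211.1 and 195.5 CPM, a log2 fold change of -0.03 (SE 0.08, adjusted p = 0.743). WT unstimulated replicates 1 and 2, the highest libraries of Tlr7, were among those that stood apart.

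Tlr13 stood at 213.3, 219.7 and 168.1 CPM and then at 168.6, 235.8 and 221.9 CPM in WT cells, a log2 fold change of 0.06 (SE 0.16, adjusted p = 0.781). In the ACAT1 KO lines it stood at 260.0, 239.3 and 182.7 CPM and then at 278.2, 331.5 and 252.9 CPM, a log2 fold change of 0.34 (SE 0.16, adjusted p = 0.0925). States overlapped in both genotypes. With the line as a block the ACAT1 KO value was 0.35 with an adjusted p of 0.0436, and with a term for the 3 libraries that stood apart it was 0.42 with an adjusted p of 0.0395. The other 8 settings did not call it.

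In ACAT1 KO cells the same 8 members passed the test, in the same directions, where 60.7% of genes tested did (29.5% rose and 31.2% fell), and none overlapped between states, as for 33.2% of genes higher and 34.6% lower. Their median log2 fold change over all 10 members was 0.68, against -0.03 for all genes. In both genotypes these 8 passed whichever of the 12 libraries was left out and under all 10 other settings. Upper-quartile normalization moved the median of all genes from -0.02 to -0.23 in WT and from -0.03 to -0.17 in ACAT1 KO cells, and no direction of these 8 changed with it.

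**Figure D2:**
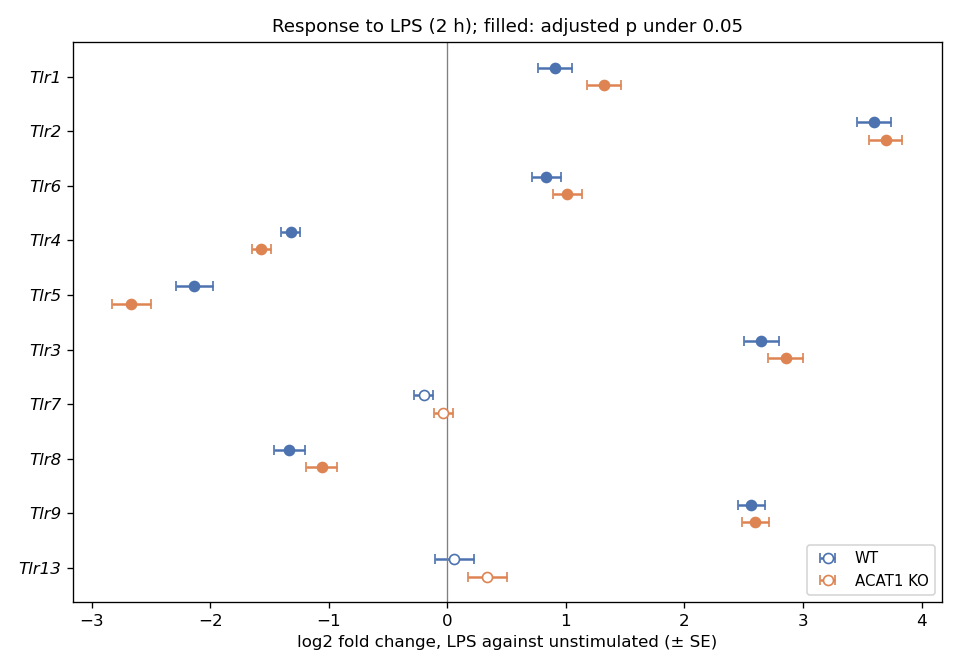
Points give the log2 fold change of each TLR, LPS against unstimulated, in WT and ACAT1 KO cells, and bars give the SE. Filled points have an adjusted p under 0.05, and the 5 filled rises and 3 filled falls are the same genes in both genotypes, with Tlr7 and Tlr13 open.

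The pathway around the receptors moved unevenly with LPS. Among 14 adaptors and proximal kinases, 9 rose and 4 fell in WT cells and 9 rose and 3 fell in ACAT1 KO cells, with median log2 fold changes of 1.11 and 0.93. Of all genes tested, 29.3% rose and 28.0% fell in WT cells, and 29.5% rose and 31.2% fell in ACAT1 KO cells. Myd88, the adaptor shared by most TLRs, rose by 2.51 (SE 0.08, adjusted p = 4.52e-10) in WT and by 2.48 (SE 0.08, adjusted p = 3.63e-10) in ACAT1 KO cells on the log2 scale. The kinase gene Irak2 rose by 1.66 and 1.48, the inhibitory Irak3 by 2.09 and 2.20, and Pik3ap1, which encodes an adaptor to phosphoinositide 3-kinase, by 1.58 and 2.12 in WT and ACAT1 KO cells. Of 6 tested co-receptor and cofactor genes, 3 rose and 2 fell in each genotype, with medians of 0.07 and 0.13. Ly96, which encodes MD-2, rose by 1.18 (SE 0.18, adjusted p = 1.40e-04) in WT and by 1.06 in ACAT1 KO cells, and Cd180, which encodes a relative of the TLRs, by 1.13 in WT and 1.32 in ACAT1 KO cells. Cd14, which hands LPS to the TLR4 complex, rose by 0.26 in WT and 0.42 in ACAT1 KO cells, and Hmgb1, which encodes a nuclear protein that can be released as a danger signal, fell by 0.48 and 0.50 in WT and ACAT1 KO cells.

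The median responses of transport genes lay near those of all genes, which were -0.02 in WT and -0.03 in ACAT1 KO cells. Of all genes, 29.3% rose and 28.0% fell in WT, and 29.5% rose and 31.2% fell in ACAT1 KO cells. Of 14 chaperones and trafficking genes, 4 rose and 6 fell in WT and 3 rose and 6 fell in ACAT1 KO cells, with medians of -0.04 and -0.06. The lysosomal transporter genes Slc15a3 and Slc15a4 rose by 1.14 and 1.05 in WT cells and by 1.10 and 0.95 in ACAT1 KO cells, while Scamp5 fell by 0.93 and 0.99. Of 10 tested enzymes that process receptors or their ligands, 3 rose and 2 fell in WT and 4 rose and 2 fell in ACAT1 KO cells, with medians of 0.15 and -0.05. The RNase gene Rnaset2b rose by 1.96 in WT and 2.74 in ACAT1 KO cells, and its near-identical copy Rnaset2a makes both values uncertain. Its levels were low, from 0.470 to 1.84 CPM in WT and from 0.460 to 3.09 CPM in ACAT1 KO cells. The endosomal nuclease gene Dnase2a fell by 0.35 and 0.29. As a check of the stimulus, 8 of 9 early LPS response genes rose in WT and 9 of 9 in ACAT1 KO cells, Il6 by 6.84 and 8.02 on the log2 scale.

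**Figure D3:**
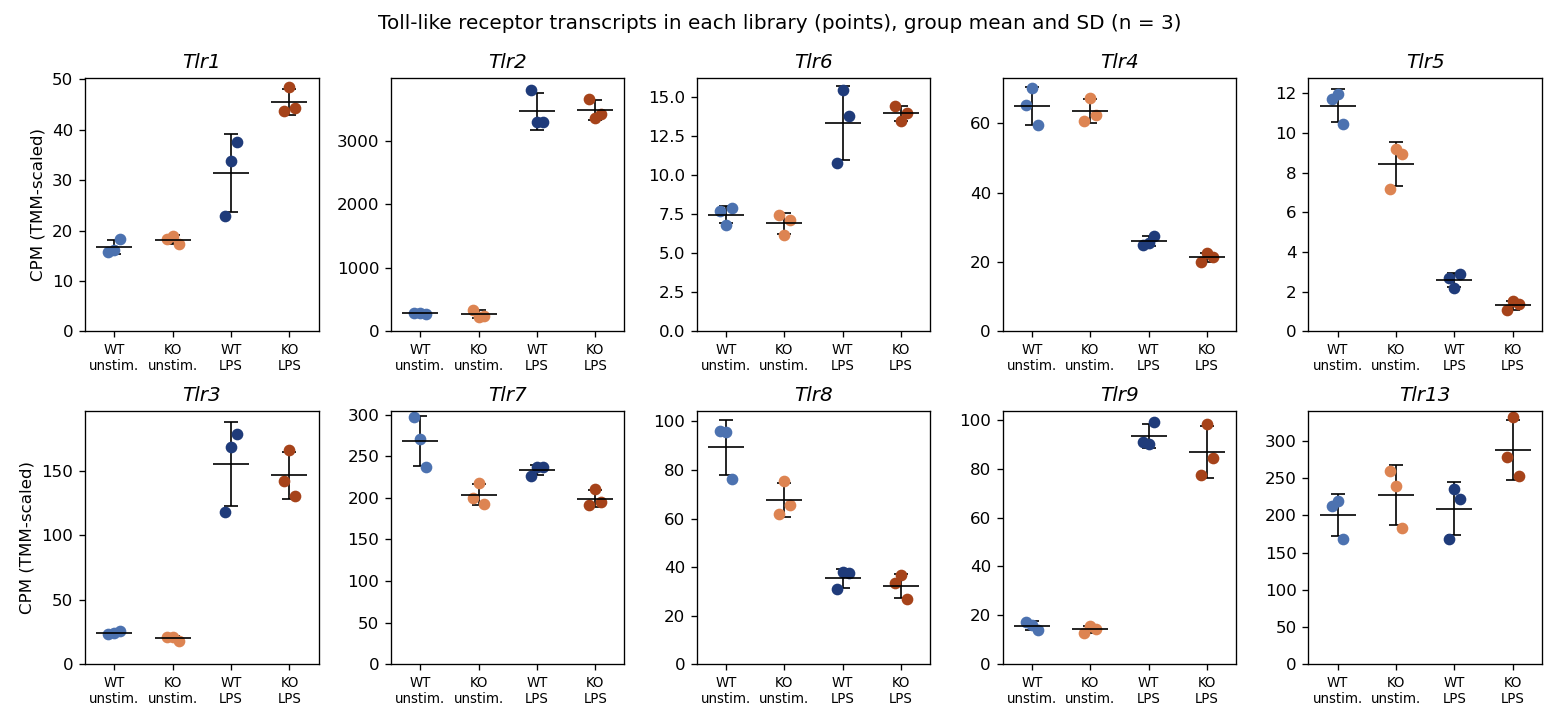
Each panel gives a TLR's level in CPM (TMM-scaled, linear axis from 0) in each library, with group mean and SD (n = 3) for WT and ACAT1 KO cells without stimulation and after LPS. Tlr4, Tlr5 and Tlr8 drop and Tlr1, Tlr2, Tlr3, Tlr6 and Tlr9 climb with LPS in both genotypes, and the Tlr5 libraries of ACAT1 KO cells sit below those of WT cells in both states.

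Loss of ACAT1 changed no TLR transcript past the adjusted threshold in unstimulated cells, where 1.91% of 16440 genes passed it. By edgeR's quasi-likelihood test 4 members had an unadjusted p under 0.05, all lower in ACAT1 KO cells. By that rule 9.93% of all genes were lower. DESeq2 called the same 4 at its adjusted threshold, where it called 1721 genes in all, against 314 by edgeR. The 4 were Tlr3, Tlr5, Tlr7 and Tlr8, and in each the highest ACAT1 KO library lay under the lowest WT library, as for 13.3% of genes. The median log2 fold change of the 10 members was -0.12, against 0.00 for all genes. The libraries are those given above for each gene.

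Tlr7 was lower by a log2 fold change of -0.39 (SE 0.10, unadjusted p = 0.00559, adjusted p = 0.0988), from 268.3 ± 30.0 CPM in WT to 203.8 ± 12.9 CPM (SD, n = 3) in ACAT1 KO cells. Its neighbour Tlr8 differed by -0.39 (SE 0.12, adjusted p = 0.135). Tlr5 differed by -0.42 (SE 0.13, adjusted p = 0.146) and Tlr3 by -0.28 (SE 0.08, adjusted p = 0.138). These are the values of edgeR's test, and none passed its adjusted threshold. With a term for the 3 libraries that stood apart, Tlr7 (-0.32, adjusted p = 0.0469) and Tlr8 (-0.29, adjusted p = 0.0415) passed it, as Tlr7 did with all 12 libraries in a single fit (-0.40, adjusted p = 0.0143). The other 6 members lay between -0.13 for Tlr9 and 0.19 for Tlr13, and their genotypes overlapped. Of 8 macrophage markers, Adgre1 (-0.78, adjusted p = 0.0368) and Fcgr1 (-0.69, adjusted p = 0.0124) were lower in the same comparison. By edgeR's test 0 of the 8 were called higher, and their median was 0.18. With 1 library left out, the calls of Adgre1 and Fcgr1 were lost in 5 and 2 of 6 fits. The part of these markers in the TLR values was not tested.

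After LPS, 3 TLR transcripts were lower in ACAT1 KO than in WT cells and none was higher past the adjusted threshold, where 15.1% of 16483 genes passed it, 9.12% lower and 5.93% higher. The 3 were Tlr4, Tlr5 and Tlr7. Tlr5 showed the largest difference, and it was the only member of the 10 that passed in every alternative run. The median log2 fold change of the members was -0.07, against 0.00 for all genes.

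Tlr5 stood at 2.69, 2.19 and 2.90 CPM in WT LPS and at 1.07, 1.51 and 1.40 CPM in ACAT1 KO LPS replicates. All ACAT1 KO libraries lay below all WT libraries. The log2 fold change was -0.94 (SE 0.17, adjusted p = 0.0128), or 1.92-fold lower. It ranged from -1.04 to -0.81 with 1 library left out, with adjusted p from 0.0221 to 0.0416.

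Tlr4 stood at 24.8, 25.6 and 27.6 CPM in WT LPS and at 20.1, 22.7 and 21.3 CPM in ACAT1 KO LPS replicates, a log2 fold change of -0.26 (SE 0.07, adjusted p = 0.0477). Tlr7 stood at 226.7, 236.9 and 236.9 CPM in WT and at 190.9, 211.1 and 195.5 CPM in the ACAT1 KO lines, a log2 fold change of -0.21 (SE 0.06, adjusted p = 0.0445). Genotypes did not overlap for either gene, nor for Tlr5, as for 22.2% of genes in this direction, and both differences were smaller than that of Tlr5. Both calls were lost when any library but WT LPS replicate 1 was left out, with adjusted p up to 0.144 for each, and under 3 (Tlr4) and 4 (Tlr7) of 8 other settings.

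Tlr1 and Tlr13 lay on the other side. Tlr13 stood at 168.6, 235.8 and 221.9 CPM in WT LPS and at 278.2, 331.5 and 252.9 CPM in ACAT1 KO LPS replicates, a log2 fold change of 0.48 (SE 0.14, adjusted p = 0.0510). Tlr1 stood at 22.9, 33.8 and 37.6 CPM in WT and at 43.8, 48.5 and 44.3 CPM in the ACAT1 KO lines, a log2 fold change of 0.55 (SE 0.16, adjusted p = 0.0544). Every ACAT1 KO library lay above every WT library for both, as for 15.6% of genes. DESeq2 called both (adjusted p = 0.00474 for Tlr13 and 0.00426 for Tlr1), and so did edgeR with upper-quartile normalization (0.0397 and 0.0454), so both lay at the edge of the threshold. Of 8 other settings 4 called each of the 2 genes. WT LPS replicate 1 was the lowest library of both, and without it the log2 fold changes were 0.35 (adjusted p = 0.0665) for Tlr13 and 0.37 (adjusted p = 0.0203) for Tlr1. The remaining members, Tlr2, Tlr3, Tlr6, Tlr8 and Tlr9, lay between -0.11 and 0.08 with overlapping genotypes.

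**Figure D4:**
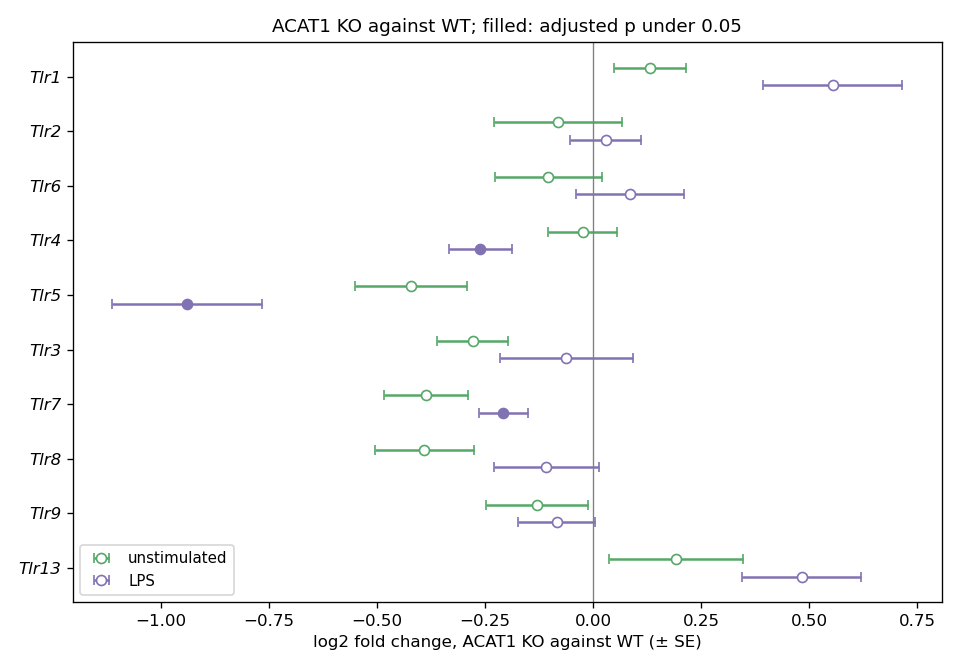
Points give the log2 fold change of each TLR, ACAT1 KO against WT, without stimulation and after LPS, and bars give the SE. Only Tlr4, Tlr5 and Tlr7 after LPS are filled (adjusted p under 0.05), and Tlr1 and Tlr13 lie to the right at 0.55 and 0.48 with open points.

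**Figure D5:**
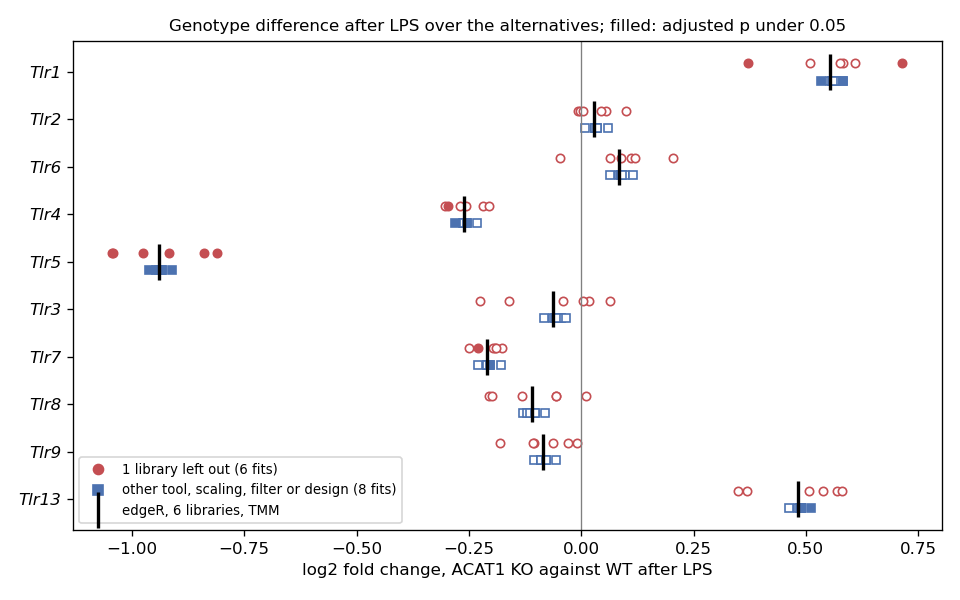
Log2 fold changes of each TLR after LPS, ACAT1 KO against WT, with 1 of 6 libraries left out (circles) and under 8 other tools, scalings, filters or designs (squares), beside the reported value (bar). Points are filled where the adjusted p was under 0.05, as in all 14 fits for Tlr5 and in 6 for Tlr4.

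Around the receptors, 2 of 14 adaptors and proximal kinases were higher and 2 lower in ACAT1 KO cells after LPS, with a median of -0.02. Of all genes tested in this comparison, 5.93% were higher and 9.12% lower, to be set beside each count below. Traf3, which encodes a signalling adaptor of the interferon branch, was lower by -0.62 (SE 0.08, adjusted p = 0.00373) and Tirap, the bridging adaptor of TLR2 and TLR4, by -0.44 (SE 0.07, adjusted p = 0.00759), while the ubiquitin ligase gene Traf6 was higher by 0.25 (SE 0.06, adjusted p = 0.0362). Of 6 co-receptors and cofactors, Cd14 was higher by 0.40 (SE 0.06, adjusted p = 0.00736) and Ager, the receptor for advanced glycation end products, lower by -0.91 (SE 0.23, adjusted p = 0.0344), with a median of -0.01. The level of Ager was low, at 0.360 CPM in WT LPS and 0.187 CPM in ACAT1 KO LPS cells. Of 14 trafficking genes only Rab7b was called, at -0.43 (SE 0.10, adjusted p = 0.0299), with a median of 0.05. With 1 library left out, the calls of Traf6, Ager and Rab7b were lost in 4, 5 and 5 of 6 fits (adjusted p up to 0.127, 0.120 and 0.102), while those of Traf3, Tirap and Cd14 were lost in 0. Ager also missed the threshold with DESeq2 (adjusted p = 0.0790), and Traf6 with all 12 libraries in a single fit of edgeR (adjusted p = 0.0996). Of 11 processing enzymes 2 were higher and 3 lower, with a median of -0.22. The 2 higher were Dnase2a at 0.33 (SE 0.05, adjusted p = 0.00703) and Rnaset2b at 0.76 (SE 0.17, adjusted p = 0.0245). With 1 library left out, their calls were lost in 0 and 4 of 6 fits. Among the 3 lower was Lgmn, a protease that cleaves endosomal TLRs, at -0.41 (SE 0.05, adjusted p = 0.00447). Lgmn was also the only gene of these 4 lists called without stimulation, at -0.44 (SE 0.07, adjusted p = 0.0403), a call that was lost whichever of the 6 libraries was left out (adjusted p from 0.0558 to 0.171). Of 10 early LPS response genes 6 were higher in ACAT1 KO cells after LPS and none lower, with Il6 at 1.40 (SE 0.26, adjusted p = 0.0126). Of 8 macrophage markers Itgam (0.48) and Spi1 (0.26) were higher and Fcgr1 (-1.07) was lower, with a median of 0.15. With 1 library left out, these calls were lost in 2, 4 and 0 of 6 fits. The part of these markers in the TLR values was not tested.

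The response of TLR transcripts to LPS was next compared between genotypes by an interaction term. By edgeR's test 0 of 10 members passed the adjusted threshold, where 0.187% of genes did (DESeq2 also called 0), and without the line as a block 2 had an unadjusted p under 0.05, both with a lower interaction term (5.64% of genes). These were Tlr5 at -0.53 (SE 0.22, unadjusted p = 0.0313, adjusted p = 0.477) and Tlr4 at -0.25 (SE 0.11, unadjusted p = 0.0412, adjusted p = 0.521) on the log2 scale. Line by line, Tlr5 differed between states by -2.12, -2.44 and -1.84 in WT and by -2.72, -2.59 and -2.66 in ACAT1 KO lines 1, 2 and 3. Tlr4 differed by -1.40, -1.46 and -1.10 in WT and by -1.59, -1.57 and -1.55 in ACAT1 KO lines. Tlr1 differed by 0.53, 1.07 and 1.04 in WT and by 1.26, 1.35 and 1.35 in ACAT1 KO lines, an interaction of 0.41 (SE 0.20, adjusted p = 0.604). The lines of the 2 genotypes did not overlap for these 3 genes, as for 13.5% of genes with a lower and 6.89% with a higher response in ACAT1 KO lines. With the line as a block, 0 members passed the adjusted threshold (1.74% of genes did), and 3 had an unadjusted p under 0.05. These were Tlr5 (-0.54, unadjusted p = 0.0113, adjusted p = 0.178) and Tlr4 (-0.25, unadjusted p = 0.0319, adjusted p = 0.297) on the lower side (9.19% of genes), and Tlr1 (0.44, unadjusted p = 0.0133, adjusted p = 0.194) on the higher side (4.78% of genes). The other 7 members had interactions from 0.03 for Tlr9 to 0.28 for Tlr13 without the block, and no difference in their responses was detected.

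Across the 12 libraries the members fell into opposing sets, given here as Pearson correlations of log2 CPM that largely follow the difference between states. Tlr2 correlated at 0.99 with both Tlr3 and Tlr9 and at -0.99 with Tlr4. Tlr4 correlated at 0.98 with Tlr5 and at 0.96 with Tlr8, while Tlr7 stood at 0.55 with Tlr8 and at -0.29 with Tlr2. Among 11961 genes with a mean of at least 1 CPM, the highest correlations were 0.998 for Tlr2 (Casp4 and Anxa7), 0.999 and 0.998 for Tlr3 (Daxx and Etnk1) and 0.998 and 0.997 for Tlr9 (N4bp1 and Ranbp2). For the members that fell they were 0.996 for Tlr4 (Kif21b and Ripor1), 0.993 and 0.992 for Tlr5 (Rasa3 and L3mbtl3) and 0.979 and 0.978 for Tlr8 (Prune2 and Tmtc4). They were 0.993 and 0.987 for Tlr1 (Tpst1 and Manea) and 0.983 for Tlr6 (Gypc and Psme2). Tlr7 (Dync2h1 at 0.952, Tspan7 at 0.929) and Tlr13 (Atp10d at 0.905, Msr1 at 0.852), which did not pass the test of the response, had the weakest.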

How the data were processed

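RNA-seq of 12 libraries was analysed, grouped as their labels give genotype, treatment and replicate. The authors used Trimmomatic 0.33 for trimming, HISAT2 for alignment to GRCm38 and StringTie for quantification. They deposited whole-number counts per gene, not normalized, in a table per state. The step that gave whole counts and its strand setting are not given in the sources used here, while the library kit was directional. The deposited tables also hold 12 columns of log2 values per library and the authors' fold changes and p-values, none of which were used. Repeated entries of a gene (59 and 57) were removed, leaving 17544 and 17874 genes, each with at least 4 counts in at least 5 libraries of its state.

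Counts were tested with edgeR 4.0.16 in R 4.3.3 (filterByExpr, TMM, quasi-likelihood test, two-sided), with Benjamini-Hochberg adjustment over all genes tested at 0.05. Genotypes were compared within each state over 6 libraries. Responses and their interaction came from a fit of group means to all 12 libraries over genes of both tables. That fit held no term for the line, so its SE and p-values were unpaired. RPKM used merged exon lengths of the GENCODE annotation of GRCm38, matched by gene identifier for 17521 and 17849 genes. Libraries of a group differed by more than sampling noise (chi-square per degree of freedom of 31.3 to 267 over 12 pairs). The spread between libraries of a group, not counting error, limits precision at this depth. In simulated counts with 200 genes changed by 1 on the log2 scale, edgeR called 126 without stimulation (16216 genes), 193 after LPS (16271 genes) and 143 for the interaction (16456 genes). Of its calls 7.35%, 5.85% and 9.49% were genes not changed. The mean share of every other simulated gene was the same in all libraries, and no libraries stood apart. Changes smaller than 1 were not simulated, and every genotype difference of a member in the main fits was smaller than that.

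The 10 members, the gene lists and the rule for named genes were chosen with earlier results of these data known. Named genes were all members, at most 3 genes with the smallest p per list and comparison among those past the adjusted threshold, Acat1, and the 2 genes most correlated with each member. Unstimulated and LPS libraries of the same number correlated in their deviations from group means across 11961 genes. The correlation was 0.139 to 0.454 in all 6 pairs. Each pair was taken as the same line, but among the fits only those with the line as a block used this pairing. With that block 288 genes had an interaction past the adjusted threshold, against 31 in the main fit. WT and ACAT1 KO numbers did not pair. Alternatives were DESeq2 1.42.0, limma-voom (limma 3.58.1), other normalizations, filters and designs, the replicate block and each library left out. A term for the 3 libraries that stood apart, and their omission, were added after the data were seen. Their omission left replicate 3 as the only unstimulated WT library.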

Additional observations from a re-analysis of the deposited data

Results flagged for a closer look

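Adgre1, which encodes the macrophage surface marker F4/80, was the only member or listed gene whose response to LPS differed between genotypes past the adjusted threshold in edgeR's fit without the line as a block (with the block, 3 more listed genes given below passed). Its interaction was 0.83 on the log2 scale (SE 0.14, adjusted p = 0.0423 in edgeR), with responses of 1.09 in WT and 1.92 in ACAT1 KO cells. It was lower by -0.78 (SE 0.11, adjusted p = 0.0368) in unstimulated ACAT1 KO cells, a call lost in 5 of 6 fits with 1 library left out. The interaction lost its call in 11 of 12 fits with 1 library left out (adjusted p from 0.0357 to 0.110 over the 12) and with limma-voom (adjusted p = 0.0577). The cause was not tested.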

How the results depend on the processing

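Both responses to LPS kept 8 or 9 called members under all settings. For the unstimulated genotype difference, 314 genes were called, against 1721 with DESeq2, 1353 with all 12 libraries in a single fit, 475 with at least 10 counts in every library, 151 with the replicate block, 664 with the term for the 3 libraries that stood apart, and 7 (without WT unstimulated replicate 2) to 522 (without WT unstimulated replicate 3) with 1 library left out. Members called there were 4 with DESeq2, 1 with all 12 libraries and 2 with that term. After LPS, 2481 genes were called, against 3078 with DESeq2 and 2400 without the filter on low counts. With 1 library left out, 867 (without ACAT1 KO LPS replicate 2) to 2245 (without WT LPS replicate 1) were called. Members called were 3, against 5 with DESeq2, 1 without that filter and 1 to 4 with 1 library left out. Leaving out any ACAT1 KO LPS library or WT LPS replicate 2 left only Tlr5. For the interaction, 31 genes were called, against 334 with DESeq2, 11 with limma-voom, 288 with the replicate block, 69 with the term, and 2 (without ACAT1 KO LPS replicate 2) to 41 (without WT LPS replicate 3) with 1 library left out.

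With the replicate block after LPS, Tlr4 (adjusted p = 0.0525) and Tlr7 (adjusted p = 0.0511) missed the threshold and Tlr1 (adjusted p = 0.0377) and Tlr13 (adjusted p = 0.0328) passed it. The numbers pair no WT with ACAT1 KO lines, so this block is a check only. The block changed no other call of a member beside those of Tlr7 and Tlr13 given above.

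Without TMM, the summed level in unstimulated WT cells was 290.8 RPKM in place of 262.4. Log2 values of uncalled members changed sign as follows. Without stimulation, Tlr4 was 0.031 with the term, and with 1 library left out Tlr2 ranged from -0.29 to 0.044 and Tlr4 from -0.084 to 0.036. After LPS, leaving out 1 library gave -0.0065 to 0.10 for Tlr2, -0.23 to 0.063 for Tlr3, -0.047 to 0.20 for Tlr6 and -0.21 to 0.011 for Tlr8. The WT response of Tlr13 was -0.15 with upper-quartile normalization and -0.052 to 0.19 with 1 library left out. The ACAT1 KO response of Tlr7 was 0.029 without the 3 libraries, 0.036 with the term and -0.077 to 0.019 with 1 library left out. The interaction of Tlr9 was -0.049 with the term and -0.066 to 0.12 with 1 library left out, and that of Tlr2 was -0.027 to 0.29.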

Other observations

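Tlr11 was listed only in the table of cells after LPS, with 7, 22 and 32 counts in WT and 21, 28 and 14 counts in ACAT1 KO replicates 1, 2 and 3, so it entered no comparison with unstimulated cells.

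With the line as a block, 3 more listed genes had an interaction past the adjusted threshold of edgeR's test, all stronger in ACAT1 KO cells. They were the chemokine gene Cxcl10 at 1.26 (SE 0.12, adjusted p = 0.00415), Il1b at 1.33 (SE 0.24, adjusted p = 0.0364) and Pik3ap1 at 0.54 (SE 0.09, adjusted p = 0.0276) on the log2 scale.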
